A study of Mus musculus with 16 samples.

Results

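The 10 genes described here, Prkcd, Tnnt1, Ramp3, Adarb1, Calb2, Tcf7l2, Lef1, Ntng1, Plcb4 and Slitrk6, are markers of the thalamus, the region that lies directly above the hypothalamus. They were chosen by name, with earlier results of these data known, as were the other gene lists set beside them. Every probe that the arrays assign to these symbols was taken, which gave 21 of the 55681 probes and 10 of the 24363 genes tested. All 21 probes passed the filter on dim probes, and the probe reported for each gene was well above background on all 16 arrays. The thalamus relays sensory and motor signals to the cerebral cortex through glutamatergic relay neurons, which develop from a caudal part of the forebrain that depends on Wnt signalling. The listed genes are known for their expression in thalamic neurons, and in dissected hypothalamus they were read as a measure of adjoining thalamus. None of them is exclusive to thalamus.

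Total RNA of hypothalamus was hybridised to 1-colour Agilent arrays, 1 mouse per array, for 8 KO chimeras and 8 control mice. KO chimeras were C57BL/6J mice exposed to 950 Rad, a dose that destroys blood-forming cells, and given a single retro-orbital injection of whole bone marrow from Adrb1tm1BkkAdrb2tm1Bkk/J mice, which lack the β1 and β2 adrenergic receptors. The labels state a ratio of 1:4 (knockout to C57BL/6J) without saying what it counts, and a recovery of 2 to 3 months. They repeat the same treatment for the control mice, so that whether the control mice were irradiated or given marrow is not settled. The knockout alleles came with the marrow, and the recipients' own cells were C57BL/6J. Ages are not given in the sources used here.

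The arrays had 27276 to 43248 of 59305 spots well above background, and their number limits the precision. They lay on 6 slides, and each of 2 scan days held 4 KO chimeras and 4 controls. Of 18 hypothalamic genes listed as markers, 17 were measured. Pmch, Hcrt, Oxt and Avp, which encode peptides of hypothalamic neurons, were well above background on all 8 arrays of each group. Animals differed in the thalamic genes within each group. KO chimera replicates 2, 4 and 8 had the lowest values among KO chimeras in 9 of 10 genes, all but Lef1. Among controls replicates 5 and 7 had the highest and replicate 4 the lowest in 9 of 10, all but Calb2.

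For some of these genes the group difference varied from probe to probe, and 6 probes are shown as examples. Why probes of a gene differ was not tested. The Prkcd pair differ in the size of the group difference. The Tcf7l2 probe lies in the stretch that encodes the HMG box, the DNA-binding domain that Tcf7l2 shares with Lef1. The Lef1 probe crosses a splice junction, as its genome interval is far longer than its 60 bases, and the Calb2 probe is the only one for that gene. The Plcb4 probe is one of 3 whose group difference was far smaller than that of the probe reported for Plcb4. Sequences and mm9 coordinates are those in the scanner files, 5′ to 3′ with no part in capitals, and exon or UTR was not assigned.
Prkcd, reported probe, chr14:31409035-31409094, minus strand: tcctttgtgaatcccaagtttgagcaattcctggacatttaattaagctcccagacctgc
Prkcd, second probe, chr14:31411938-31411997, minus strand: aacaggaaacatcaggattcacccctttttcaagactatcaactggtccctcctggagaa
Tcf7l2, reported probe, chr19:55994029-55994088, plus strand: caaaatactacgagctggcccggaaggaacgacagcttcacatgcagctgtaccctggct
Lef1, second probe, chr3:130907851-130926012, plus strand: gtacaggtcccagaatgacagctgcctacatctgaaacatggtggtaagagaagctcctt
Calb2, reported probe, chr8:112678555-112678614, minus strand: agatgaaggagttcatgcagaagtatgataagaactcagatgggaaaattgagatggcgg
Plcb4, second probe, chr2:135807797-135807856, plus strand: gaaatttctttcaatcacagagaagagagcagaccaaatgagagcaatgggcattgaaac

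KO chimeras had lower values than controls for all 10 genes, by 0.11 to 1.87 on the log2 scale, with a median log2 fold change of −0.87 against 0.00023 over all genes tested. Prkcd, Adarb1 and Plcb4 fell (limma, adjusted over all genes), which is 3 of 10, where 2.77% of all genes fell and 3.8% were called in either direction (250 higher and 675 lower). The difference did not pass for the other 7. Because the members were chosen with earlier results of these data known, the contrast with all genes is a description and not independent support. With each array scaled to its median instead, which moves the median of all genes to −0.13, 6 of 10 fell among 176 higher and 4024 lower genes, and with normexp background correction 0 of 10 passed among 25 higher and 230 lower. With each probe tested on its own, Adarb1 and Plcb4 had a probe that fell, and 1.79% of all 35144 probes fell. The groups overlapped for all 10 genes, while they did not overlap for 0.965% of all genes. Values are log2 processed signal minus the array's 75th percentile, and each fold change is KO chimera minus control. In bulk tissue, fewer cells of a type and less RNA per cell cannot be told apart, and here less adjoining thalamus cannot be told apart from less RNA of these genes.

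**Figure D1:**
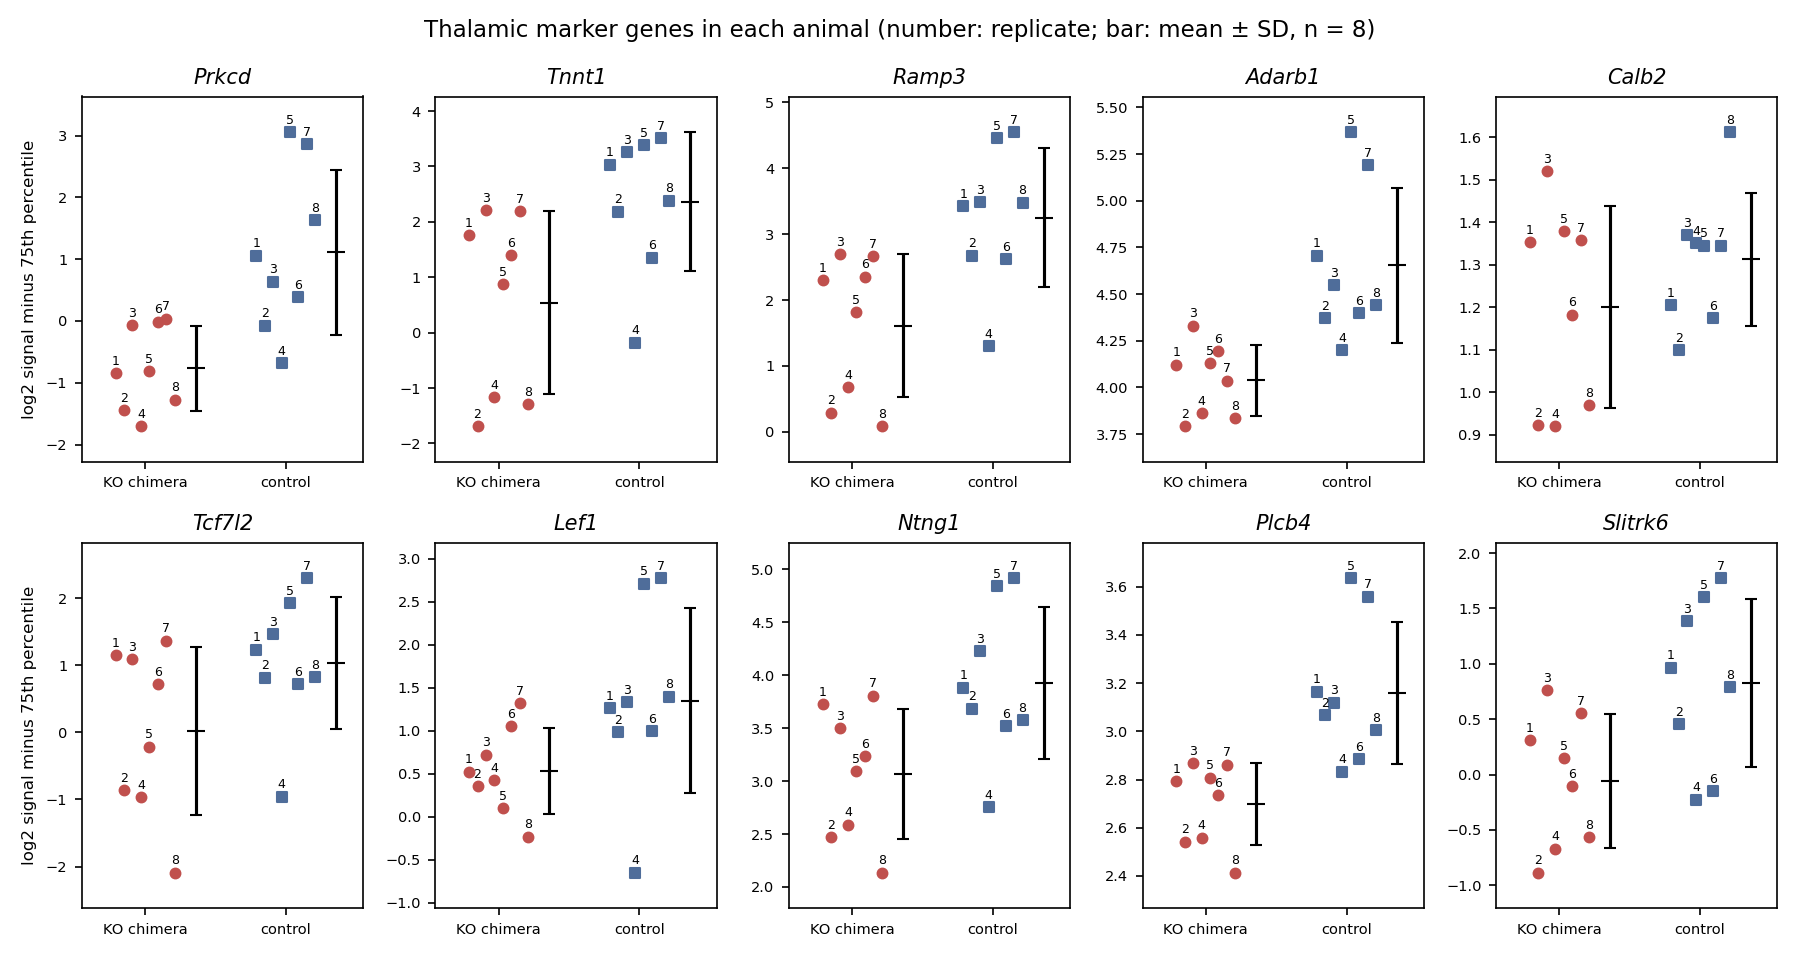
Level of each thalamic marker gene in each animal, as log2 processed signal minus the array's 75th percentile (y axis, own scale in each panel). Circles are the 8 KO chimeras and squares the 8 controls, numbers are replicates, and bars give the mean ± SD. KO chimera replicates 2, 4 and 8 are the lowest KO chimeras in 9 of 10 panels (in Lef1, replicates 2, 5 and 8), and the groups overlap in every panel.

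Prkcd encodes protein kinase C delta, which is activated by diacylglycerol without calcium and is widely used to mark relay neurons of the sensory thalamus. Its lowest, median and highest values were −1.70, −0.83 and 0.04 in KO chimeras, against −0.68, 0.85 and 3.06 in controls. All 8 KO chimeras lay below the control median, 5 of them below the lowest control, and 6 of 8 controls lay above the highest KO chimera. The mean was −0.76 ± 0.69 in KO chimeras and 1.11 ± 1.34 in controls (SD, n = 8 each), a log2 fold change of −1.87 ± 0.49 (SE), or 0.273 of the control level (limma adjusted p = 0.043; exact two-sided permutation p = 0.00264, unadjusted). The reported probe is that at chr14:31409035-31409094. The second probe, 2903 bases away, gave −1.35 ± 0.43. With the adjustment over all probes neither Prkcd probe passed (limma adjusted p = 0.0509 for the reported one and 0.0937 for the second).

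Plcb4 encodes phospholipase C beta 4, which metabotropic glutamate receptor 1 activates through Gq in thalamic relay neurons. Its lowest, median and highest values were 2.41, 2.76 and 2.87 in KO chimeras, against 2.83, 3.09 and 3.64 in controls. Only the highest KO chimeras reached the lowest controls, with 6 of 8 KO chimeras below the lowest control. Plcb4 fell by 0.46 ± 0.12 (SE; limma adjusted p = 0.0388; exact permutation p = 0.000622). This rests on the 3′-most of 4 probes, at chr2:135840255-135840314. The other 3, at 1510 to 352969 bases from it, gave log2 fold changes of 0.10, −0.11 and 0.07, none of which passed (limma adjusted p over all probes 0.656 to 0.798). Of these, the 2 probes nearest to the reported one followed it across controls (r = 0.88 and 0.93), and the farthest did not (r = −0.38). The fall of Plcb4 was therefore seen with 1 of its 4 probes.

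Ramp3 encodes a receptor activity-modifying protein, which escorts the calcitonin receptor and the calcitonin receptor-like receptor to the cell surface and sets their ligand. Its lowest, median and highest values were 0.08, 2.06 and 2.70 in KO chimeras, against 1.30, 3.45 and 4.55 in controls. All 8 KO chimeras were below the control median, and KO chimera replicates 2, 4 and 8 were below every control. The mean was 1.61 ± 1.09 in KO chimeras and 3.25 ± 1.06 in controls (SD, n = 8 each). The log2 fold change of −1.64 ± 0.49 (SE) did not pass (limma adjusted p = 0.0713; exact permutation p = 0.0106, unadjusted). With the slide as a fixed block, in which KO chimera replicate 4 has no weight because it was alone on its slide, it passed (−1.52, limma adjusted p = 0.0365). The probe is at chr11:6577416-6577475, and a second probe shifted by 8 bases gave −1.65.

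Adarb1 encodes an adenosine deaminase that edits RNA, including the codon of the AMPA receptor subunit Gria2 that controls calcium entry. Its lowest, median and highest values were 3.79, 4.08 and 4.33 in KO chimeras, against 4.20, 4.50 and 5.37 in controls. It was the gene with the least overlap: 7 of 8 KO chimeras were below the lowest control, and 7 of 8 controls above the highest KO chimera. The mean was 4.04 ± 0.19 in KO chimeras and 4.65 ± 0.42 in controls (SD, n = 8 each). Adarb1 fell by 0.62 ± 0.15 (SE), to 0.653 of the control level (limma adjusted p = 0.0374; exact permutation p = 0.000311). Its single probe lies at chr10:76753479-76753538.

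Tcf7l2 and Lef1 are HMG-box transcription factors that act with β-catenin at the end of the Wnt pathway, and Tcf7l2 is required for the identity of thalamic and habenular neurons in mice. Tcf7l2 had lowest, median and highest values of −2.09, 0.25 and 1.36 in KO chimeras, against −0.96, 1.03 and 2.30 in controls. KO chimera replicates 4 and 8 were below the lowest control, replicate 4, and the other 6 KO chimeras lay inside the range of the controls. The difference of −1.02 ± 0.52 (log2, SE) did not pass (limma adjusted p = 0.277). Its probe at chr19:55994029-55994088 and one 12609 bases further 3′ gave −1.02 and −1.31, whereas one 176757 bases 5′ of it gave −0.22, and none passed. Lef1 had lowest, median and highest values of −0.23, 0.48 and 1.32 in KO chimeras, against −0.65, 1.30 and 2.78 in controls. Control replicate 4 was the lowest of all 16 animals for Lef1, and 4 controls were above the highest KO chimera. The log2 fold change was −0.82 ± 0.39 at chr3:130926200-130926259 and −0.34 ± 0.29 at the second probe (SE; limma adjusted p = 0.243 and, over all probes, 0.535).

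The share of promoters with a TCF/LEF motif was counted because 2 of the 10 genes encode TCF/LEF factors. The letters CTTTGAT, searched on both strands, were in 0 of 15 RefSeq promoter windows of the 9 genes that had one (250 bases before to 50 after a start), and in 3.73% of all 32851 windows of the table. With only 15 windows, a count of 0 cannot be told apart from that share, so no conclusion is drawn from it. Axin2, a widely used target of Wnt signalling, measured −0.46 ± 0.13, and Ctnnb1, which encodes β-catenin, −0.16 ± 0.07 (SE), and neither passed (limma adjusted p = 0.0589 and 0.18).

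Ntng1 and Slitrk6 encode proteins of the neuronal surface: netrin-G1 is a membrane-anchored protein of thalamocortical axons, and Slitrk6 is a leucine-rich repeat transmembrane protein that regulates neurite growth. Ntng1 had lowest, median and highest values of 2.14, 3.16 and 3.81 in KO chimeras, against 2.75, 3.78 and 4.92 in controls. The log2 fold change was −0.86 ± 0.31 at the reported probe, which has 10 spots per array, and −0.71 and −1.0 at the other 2 (limma adjusted p = 0.125 for the first). Slitrk6 had lowest, median and highest values of −0.89, 0.02 and 0.76 in KO chimeras, against −0.23, 0.88 and 1.77 in controls. KO chimeras minus controls gave −0.88 ± 0.32 (log2, SE; limma adjusted p = 0.123). In each of these genes KO chimera replicates 2, 4 and 8 were below every control.

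Tnnt1 and Calb2 encode proteins tied to calcium. Tnnt1 is the troponin T of slow skeletal muscle, which in brain is used as a marker of thalamic nuclei. Its lowest, median and highest values were −1.69, 1.14 and 2.21 in KO chimeras, against −0.18, 2.71 and 3.51 in controls. KO chimera replicates 2, 4 and 8 measured −1.69, −1.16 and −1.29 and the other 5 between 0.88 and 2.21, so that the KO chimeras fell into separate clusters for Tnnt1. The log2 fold change of −1.83 ± 0.67 (SE) did not pass (limma adjusted p = 0.133), and the second probe, well above background on 5 of 8 KO chimera and 8 of 8 control arrays, gave −1.79. The spread of Tnnt1 within groups was larger than that of 99.95% of all genes tested, and for Prkcd, Ramp3 and Tcf7l2 this share was 99.75%, 99.78% and 99.83%.

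Calb2 encodes calretinin, a calcium-binding protein of midline thalamic nuclei that is also made by many hypothalamic neurons. Its lowest, median and highest values were 0.92, 1.27 and 1.52 in KO chimeras, against 1.1, 1.34 and 1.61 in controls. KO chimera replicates 2, 4 and 8 were below every control, while the other 5 lay inside the range of the controls. The mean was 1.20 ± 0.24 in KO chimeras and 1.31 ± 0.16 in controls (SD, n = 8 each). The log2 fold change of −0.11 ± 0.10 (SE) did not pass (limma adjusted p = 0.55). Calb2 had the smallest group difference of the 10 genes. Its spread within groups was larger than that of 48.87% of genes, near the middle.

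**Figure D2:**
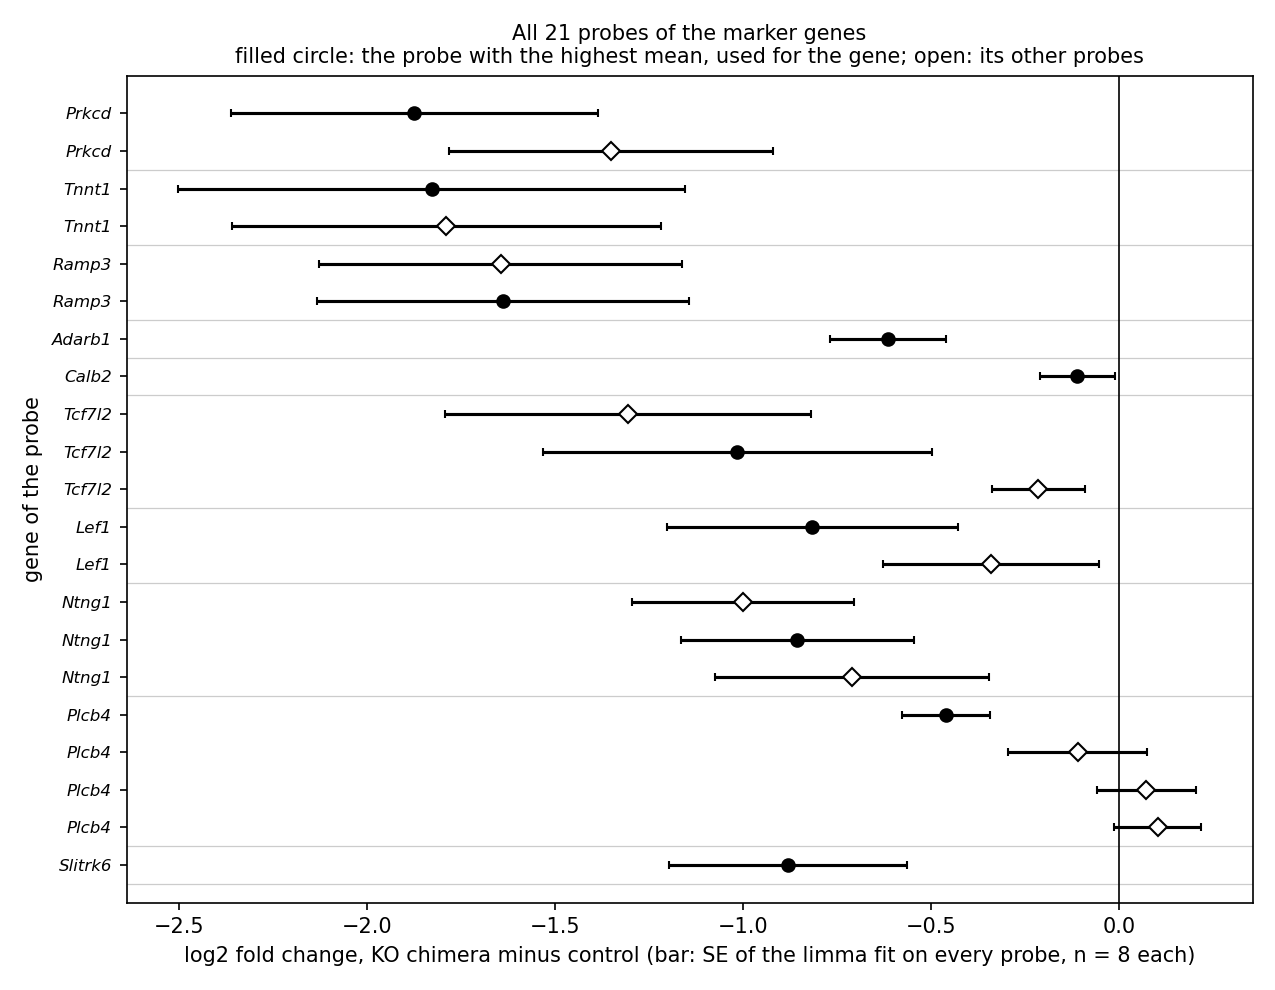
Log2 fold change, KO chimera minus control, of all 21 probes of the 10 genes (x axis), with the SE of the limma fit on every probe, n = 8 each. Filled circles mark the probe used for the gene, and open diamonds its other probes. Plcb4 differs by probe, from −0.46 to 0.10, and 1 of 3 Tcf7l2 probes, at −0.22, is nearer to 0 than the other 2.

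The 3 calls changed with single animals. Leaving out KO chimera replicate 2, 4, 6 or 8, or control replicate 1, 5 or 7, left no member past the threshold in each case (lowest limma adjusted p among members 0.0577 to 0.0698). These fits called 361 to 679 of all genes, against 925 with all animals. Without KO chimera replicate 1 or 7 or control replicate 3, 1 member passed, among 602 to 684 genes called. Without control replicate 4, the low control, 4 passed, among 715 genes called. All 10 log2 fold changes stayed negative in each of the 32 refits that kept 1 probe per gene. With the slide as a fixed block Prkcd and Ramp3 passed, and Adarb1 and Plcb4 did not (limma adjusted p = 0.0561 and 0.0583). That fit called 477 of all genes. Quantile normalization, the values deposited by the authors and no filter on dim probes left 0 of 10 past the threshold (limma, lowest adjusted p 0.0554, 0.0536 and 0.0576), with 7 under 0.05 unadjusted in each.

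Slides 1, 3, 4, 5 and 6 held both groups, and slide 2 held only KO chimera replicate 4. All 4 animals of slide 6 were low within their group: KO chimera replicates 2 and 8 and control replicate 2 were below their group's median in 10 of 10 genes, and control replicate 4 in 9. Control replicate 6, on slide 3, and KO chimera replicate 4, on slide 2, were also below it in 10 of 10, and controls 5 and 7 lay on slides 5 and 3. Within slide 6 the median was −0.88, and all 10 genes were lower in KO chimeras. Within slides 1, 3, 4 and 5 the count was 9, 9, 8 and 9 of 10, with medians of −0.48, −1.37, −0.40 and −1.12, and slides 4 and 5 compare 1 animal with 1. Calb2 was higher in KO chimeras within slides 1, 3 and 5, and Ntng1 and Tcf7l2 within slide 4. Within scan day 1 the median was −0.72 and within scan day 2 −1.02, with all 10 genes lower on both days. Without slide 6 the median log2 fold change was −0.89 and that of Prkcd −2.17, while no member passed (lowest limma adjusted p = 0.078) and 3 of all genes were called. The number of spots above background of the low animals was 34951, 38245 and 42649 in KO chimera replicates 2, 4 and 8 and 36217 in control replicate 4, within the range of the other 12.

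The members varied together from animal to animal. In controls, all 36 pairs of the 9 genes other than Calb2 had a Pearson r of 0.75 to 0.98 (exact permutation, adjusted p under 0.05 for each; 90 relations in the family, n = 8). Prkcd and Ramp3 had r = 0.937 and Spearman rho = 0.881 (exact permutation adjusted p = 0.0026 and 0.0172), and Prkcd and Lef1 r = 0.936 and rho = 0.952 (exact permutation adjusted p = 0.00183 and 0.00685). Without the 2 controls farthest from the median of the first gene, r over these 36 pairs ran from 0.53 to 0.98. In KO chimeras Tnnt1 split into clusters and is given no r. Of the 28 pairs of the other genes without Calb2, 25 passed, with r from 0.46 to 0.98, and without the 2 farthest KO chimeras r over these 28 ran from 0.20 to 0.97. Prkcd and Ramp3 had r = 0.887 and rho = 0.81 (exact permutation adjusted p = 0.0163 and 0.035). After centring by group and scan day, Prkcd and Ramp3 still had r = 0.877 over 16 animals, given without a test.

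For Calb2, 7 of 8 pairs in KO chimeras passed (r from 0.43 to 0.97, n = 8, exact permutation; Tnnt1 left out). In controls 0 of 9 pairs passed by exact permutation (r from 0.02 to 0.37, lowest adjusted p = 0.414 for r and 0.47 for rho, no pair under 0.05 unadjusted). Control replicates 5 and 7, highest of the controls in the other 9 genes, measured 1.34 and 1.34 for Calb2, at the control median. Whether the relation differs between the groups was not tested.

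**Figure D3:**
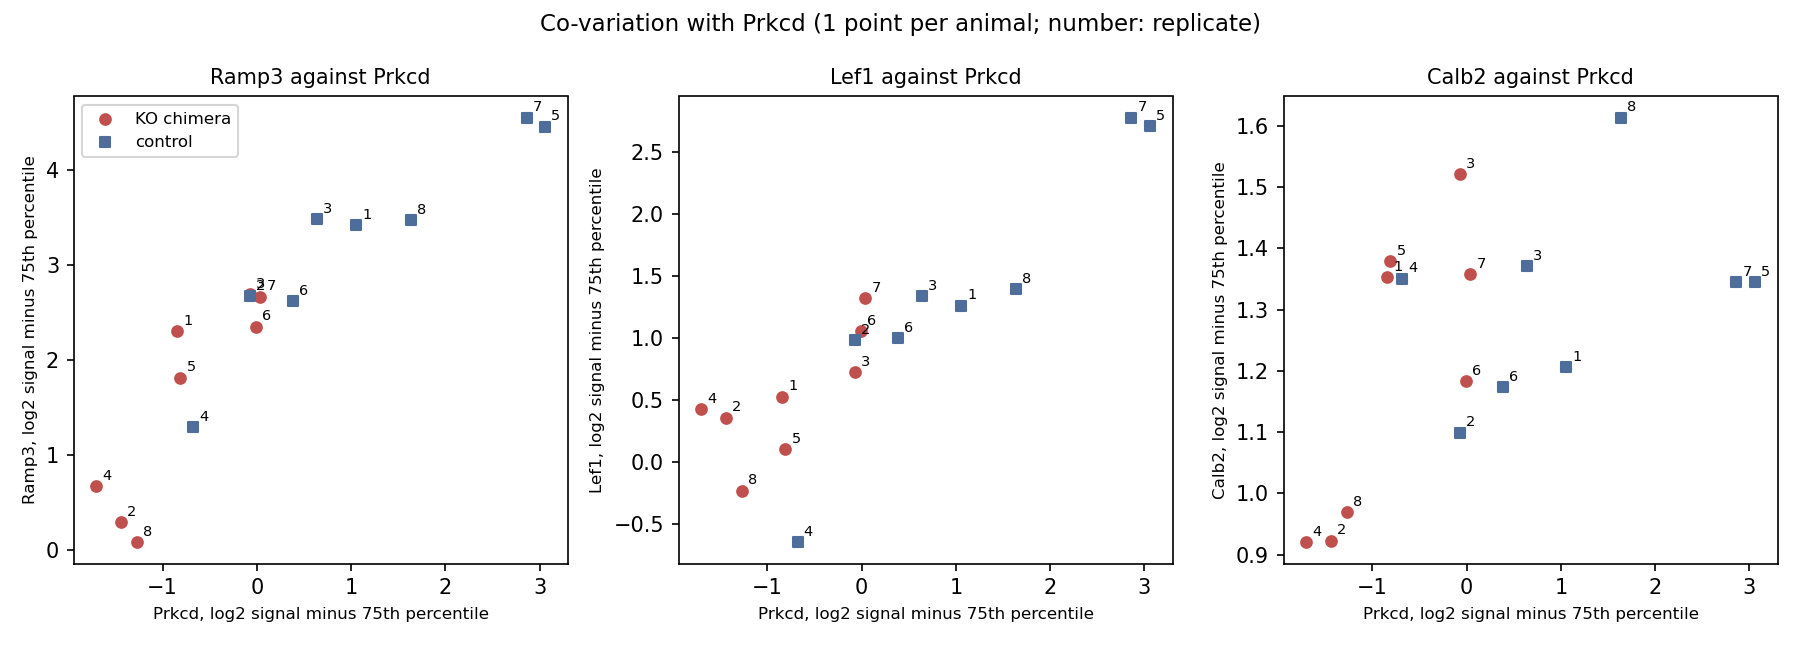
Ramp3, Lef1 and Calb2 (y axes) against Prkcd (x axis), all as log2 processed signal minus the array's 75th percentile, with 1 point per animal and its replicate number. Circles are KO chimeras and squares controls. Ramp3 and Lef1 follow Prkcd through both groups, and for Calb2 r was 0.778 in KO chimeras and 0.368 in controls, a difference that was not tested.

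The genes whose values went most closely with the mean of the members over 16 animals, each centred on its group mean, were Rora, Gabrd, Rtn4rl1, Grid2ip, Hlf, Cck, Wnt3, Rgs7bp, Scube2 and Inpp5a. Their r ran from 0.961 for Inpp5a to 0.979 for Rora, as a description with no test. Rora, an orphan nuclear receptor made in thalamic relay neurons, was also on the list of other thalamic genes. Gabrd encodes the delta subunit of extrasynaptic GABA-A receptors, and Cck the neuropeptide cholecystokinin. Gabrd had lowest, median and highest values of −2.18, −0.78 and 0.10 in KO chimeras, against −1.84, 0.72 and 1.92 in controls. KO chimeras minus controls gave −1.49 ± 0.51 (log2, SE; limma adjusted p = 0.108). All 10 were lower in KO chimeras, and 0 of 10 passed by limma (lowest adjusted p = 0.0528, for Rgs7bp). KO chimera replicates 2, 4 and 8 were the lowest KO chimeras, and replicates 5 and 7 the highest controls, in all 10. This order follows largely from the choice of these 10 by their r with the members in the same animals. Of 16825 genes compared, 56 had r over 0.9 and 0 under −0.9.

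**Figure D4:**
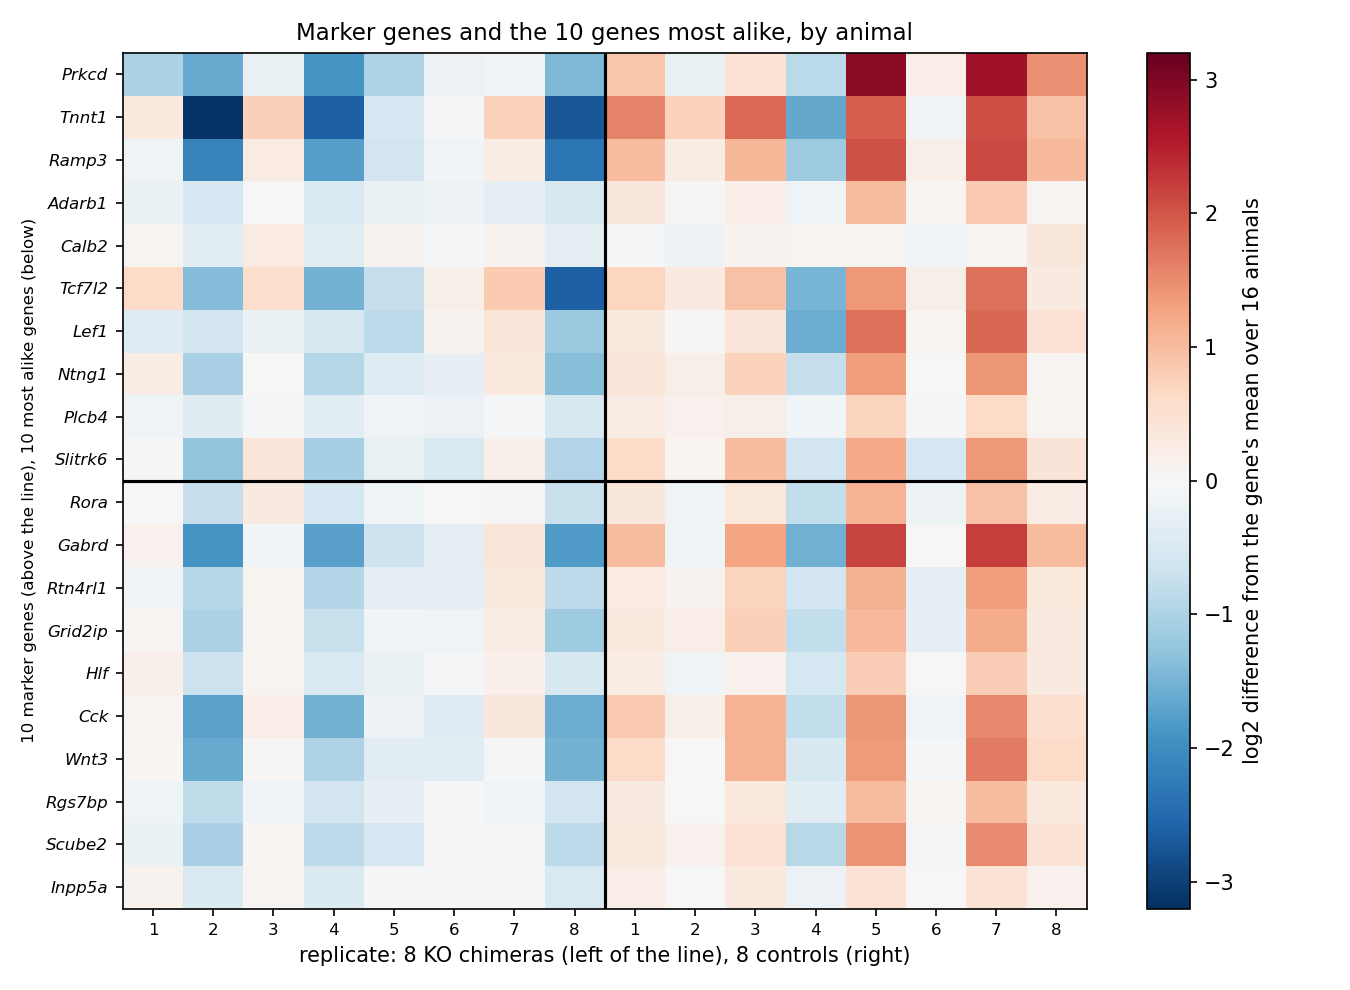
Difference of each gene from its mean over 16 animals, on the log2 scale (colour), for the 10 marker genes above the line and the 10 most alike genes below it. The 10 genes below the line were chosen by their r with the marker genes in these same animals. Columns are the 8 KO chimeras, left, and the 8 controls, right. KO chimera replicates 2, 4 and 8 and control replicate 4 are low, and control replicates 5 and 7 high, in nearly all rows, with Calb2 and control replicates 4, 5 and 7 the exception.

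Of other genes expressed in thalamus, all 15 listed were measured. Their median log2 fold change was −0.47, from −1.25 to 0.04, and 14 were negative. Foxp2, a forkhead transcription factor, fell by 0.71 ± 0.19 (SE; limma adjusted p = 0.0446). It was the 1 of 15 that passed, where 2.77% of all genes fell. Nexn, an actin-binding protein gene, and Pdp1, a mitochondrial phosphatase gene, had log2 fold changes of −1.08 and −0.67 that did not pass (limma adjusted p = 0.0639 and 0.0713). Among genes named after their values were seen, Slc17a6, the vesicular glutamate transporter of thalamic relay neurons, which many hypothalamic neurons also use, measured 2.69 ± 0.08 in KO chimeras and 3.07 ± 0.33 in controls (SD, n = 8 each; limma adjusted p = 0.075). Gbx2 and Shox2, transcription factors of the developing thalamus, measured −1.25 and −1.22 without passing, and Shox2 was well above background on 4 of 8 KO chimera and 7 of 8 control arrays. The mean of this list, centred on all animals, followed Prkcd with r = 0.823 in KO chimeras and r = 0.82 in controls, which did not pass over the 18 relations of lists with Prkcd (exact permutation adjusted p = 0.0782 for both, rho 0.786 and 0.857). Rora is both in this list and among the most alike genes.

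**Figure D5:**
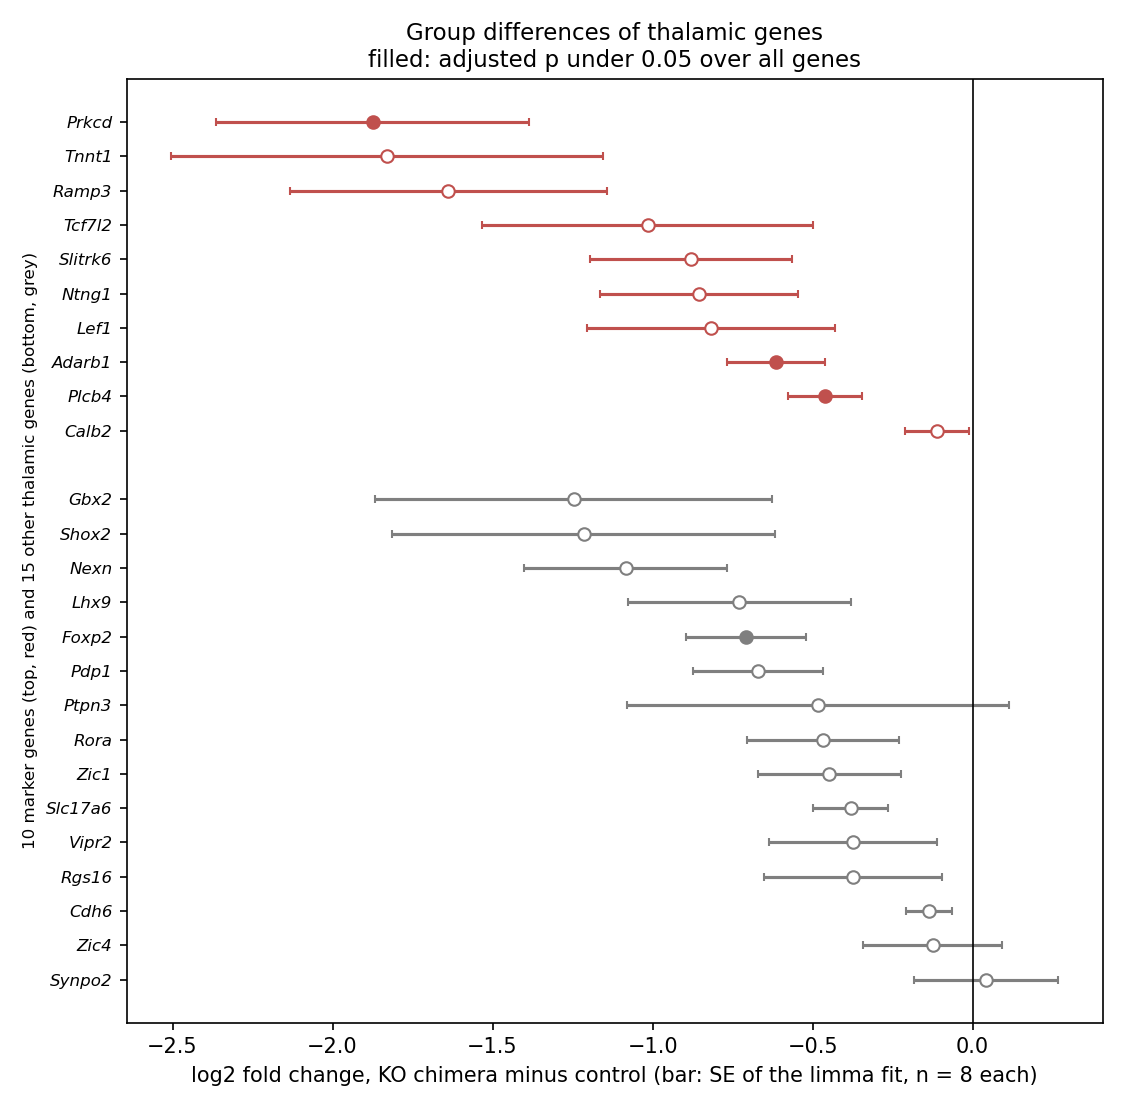
Log2 fold change, KO chimera minus control, of the 10 marker genes (top) and 15 other thalamic genes (bottom), with the SE of the limma fit, n = 8 each. Filled circles passed the threshold of 0.05 over all genes, namely Prkcd, Adarb1, Plcb4 and Foxp2. All but Synpo2, at 0.04, are negative.

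Of 25 paralogs of the marker genes 20 were measured, and their median log2 fold change was −0.15. Of these 20, 2 fell and none rose, where 2.77% of all genes fell. Plcb1, another phospholipase C beta, fell by 0.36 ± 0.07, and Prkcb, a calcium-dependent protein kinase C, fell by 0.28 ± 0.08 (SE; limma adjusted p = 0.0136 and 0.0458). Pvalb, the calcium-binding protein parvalbumin, measured 1.72 ± 0.44 in KO chimeras and 2.56 ± 0.67 in controls (SD, n = 8 each; limma adjusted p = 0.0778). Adar, the other editing deaminase, had a log2 fold change of −0.14 that did not pass (limma adjusted p = 0.132). Of 12 partners 11 were measured, and Htr2c was the 1 that passed, where 2.77% of all genes fell. Htr2c, the serotonin 2C receptor whose RNA is edited by Adarb1, fell by 0.47 ± 0.08 (SE; limma adjusted p = 0.0102). Gnaq, the Gq subunit upstream of Plcb4, measured −0.19 ± 0.05, and Tnni1, the troponin I of slow muscle, −0.47 ± 0.20 (SE), without passing (limma adjusted p = 0.0514 and 0.186).

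Markers of neighbouring tissue and of other cell types were set beside these genes, on the mean of each list centred on all animals. The hypothalamus list ranged from −0.18 to 0.55 in KO chimeras and from −0.38 to 0.34 in controls. None of its 17 measured genes passed, and 12 were higher in KO chimeras (median log2 fold change 0.17). It went against Prkcd without passing (r = −0.635 in KO chimeras and −0.481 in controls, rho −0.786 and −0.31, exact permutation adjusted p for r 0.246 and 0.411). Without the 2 animals farthest from the median of Prkcd, r was −0.257 in KO chimeras and −0.209 in controls. The oligodendrocyte list ranged from −0.34 to 0.07 in KO chimeras and from −0.08 to 0.42 in controls. Of its 10 genes 4 fell, Mal, Mobp, Cldn11 and Mog, which encode myelin proteins, where 2.77% of all genes fell. The r of this list with Prkcd was −0.171 in KO chimeras and 0.612 in controls (rho −0.143 and 0.452, exact permutation adjusted p for r 0.855 and 0.246). Without the 2 farthest animals, r was 0.684 in KO chimeras and 0.059 in controls. The pan-neuronal list ranged from −0.19 to 0.05 in KO chimeras and from −0.05 to 0.27 in controls. In KO chimeras it followed Prkcd with r = 0.909 (exact permutation adjusted p = 0.0478) and rho = 0.881 (exact permutation adjusted p = 0.0643), and r was 0.885 without the 2 farthest animals. In controls that r was 0.566 and did not pass (exact permutation adjusted p = 0.284), and it was −0.122 without the 2 farthest animals. Of the habenula, which adjoins the thalamus and also depends on Tcf7l2, 5 of 8 genes were measured, with a median of 0.05 and 0 past the threshold. Its r with Prkcd was 0.135 in KO chimeras and 0.647 in controls (exact permutation adjusted p = 0.855 and 0.246). Telencephalic markers were measured for 10 of 12 genes, again with a median of 0.05 and 0 past the threshold. The telencephalon list had r = −0.071 with Prkcd in KO chimeras and −0.632 in controls (exact permutation adjusted p = 0.86 and 0.246). Without the 2 farthest animals, that r was 0.06 and 0.165. The part of these lists in the differences of the thalamic genes was not tested.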

How the data were processed

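Hypothalamus RNA of 16 mice was measured on 1-colour Agilent arrays. The authors deposited each array's processed spot intensity from Agilent Feature Extraction 10.7, linear and background-subtracted per the file headers. A deposited table of log2 values served as an alternative. It correlated with the scanner's log2 values across spots (r at least 0.9996), and how its arrays were aligned is unknown. Its medians were 5.21 to 5.26, and its scale is log2 without gene centring.

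Control spots and outlier spots were left out, each array's 75th percentile was subtracted from log2 intensity, and a probe's spots were averaged. The filter kept 35144 probes, those well above background on 8 or more of 16 arrays, and the probe with the highest mean stood for its gene. Probes were named through RefSeq accession (28026), symbol (3418) or older symbol (295), or kept the file's name (23942). Groups came from the labels, in which 1 KO chimera's title is spelled with a zero. Groups were compared with limma 3.58.1 (R 4.3.3) and Benjamini-Hochberg adjustment over 24363 genes at a threshold of 0.05. The comparison was also run on simulated data in which each gene varied independently. Genes vary together in these arrays, so the simulation cannot show how the threshold holds here. Pearson and Spearman correlations were tested within groups over all pairings of 8 animals (scipy 1.17.1), and each member's difference over 12870 assignments. The lists hold genes of thalamus, habenula, hypothalamus, telencephalon, oligodendrocytes, astrocytes, choroid plexus, ependyma and neurons, and paralogs and partners of the members. Members and lists were chosen with earlier results of these data known.

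The genes named are the members, up to 5 paralogs and 5 partners and up to 3 genes of each other list with the smallest p, and the 10 genes most alike. Mog, Slc17a6, Gbx2, Shox2, Synpo2, Ttr and the 4 hypothalamic peptides named to check the tissue were named after their values were seen. The alternatives were other normalizations, filters and blocks, each animal or slide left out, and every probe on its own. The result of 1 paralog is not reported here.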

Additional observations from a re-analysis of the deposited data

How the results depend on the processing

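Against 925 genes and 3 members called, quantile normalization gave 534 genes and 0 members (7 members at an unadjusted p under 0.05), median scaling 4200 and 6, normexp 255 and 0 (9 members unadjusted), the values deposited by the authors 535 and 0 (7 unadjusted), and no filter on dim probes 594 and 0 (7 unadjusted). The slide as a fixed block gave 477 genes, a threshold of 0.1 gave 2019, and scan day 1 and scan day 2 alone gave 0 and 7 genes (2838 and 3433 unadjusted) and 0 members each by limma (3 and 8 unadjusted). Without slide 6, chosen after seeing the data, 3 genes and 0 members were called (4348 and 9 unadjusted). Leaving out each animal gave 361 to 1028 genes, 0 to 4 members, a median member log2 fold change of −1.07 to −0.72 and a median r between members in controls of 0.852 to 0.921. That r, 0.889, was 0.833 over 16 animals centred by group and scan day and 0.819 without the 2 farthest animals. The median member log2 fold change of −0.87 ran from −1.37 within slide 3 to −0.40 within slide 4, with −0.48 within slide 1, and was negative in each alternative. Plcb4 turned positive at 2 other probes (0.10 and 0.072). Same-numbered animals correlated at −0.07 to 0.24, with genes centred on their group mean, which does not settle whether replicate numbers pair the animals. The replicate block gave 791 genes and 6 members. No difference within a slide has a test, so none gave counts of calls. The causes of these changes were not tested.

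The probe reported for each member was well above background on all 16 arrays. Calls still changed with background correction, as normexp left 0 members past the threshold and gave −1.59 for Prkcd. Of the other probes, 1 of Tnnt1 and 1 of Ntng1 were well above background on only 5 and 6 of 8 KO chimera arrays. The number of animals per slide is a further limit: slides 4 and 5 held 1 of each group and slide 2 held 1 KO chimera.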

Other observations

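Ependyma, the ciliated lining of the ventricles, gave values opposite in sign to the thalamic genes. All 4 of its genes were higher in KO chimeras, with a median log2 fold change of 0.47, and 0 passed by limma. Rarres2, which encodes the chemokine chemerin, measured 3.00 ± 0.30 in KO chimeras and 2.50 ± 0.43 in controls (SD, n = 8 each; limma adjusted p = 0.113). Foxj1, the transcription factor of motile cilia, measured 0.76 ± 0.34 in KO chimeras and 0.33 ± 0.35 in controls (limma adjusted p = 0.139). The mean of the list showed little relation with Prkcd (r = 0.233 in KO chimeras and −0.114 in controls, n = 8, exact permutation adjusted p = 0.839 and 0.855).

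Astrocyte and choroid plexus lists had medians of −0.09 each, with 0 of 6 and 0 of 5 genes past the threshold by limma. In choroid plexus, which secretes cerebrospinal fluid, the list mean ranged from −0.60 to 1.73 in KO chimeras and from −0.95 to 1.92 in controls, and Ttr, its transthyretin gene, had an SD of 2.41 in KO chimeras and 2.74 in controls. Clic6, the choroid plexus gene with the smallest p, measured 2.16 ± 0.14 in KO chimeras and 1.87 ± 0.20 in controls (SD, n = 8 each; limma adjusted p = 0.0638). Of the 5 genes of this list, 3 were lower in KO chimeras. The r of the choroid plexus list with Prkcd was 0.222 in KO chimeras and 0.115 in controls (exact permutation adjusted p = 0.855 for both). The astrocyte list had r = 0.821 with Prkcd in controls and 0.355 in KO chimeras, and neither passed (exact permutation adjusted p = 0.0782 and 0.626). Rbfox3, the nuclear protein NeuN of neurons, fell by 0.26 ± 0.07 (SE; limma adjusted p = 0.0441). It was the 1 of 7 pan-neuronal genes that passed, where 2.77% of all genes fell. Gal, Pomc and Kiss1, which encode hypothalamic peptides, had log2 fold changes of 0.32, 0.59 and 0.58 that did not pass (limma adjusted p = 0.126, 0.168 and 0.198).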
